A study of Mus musculus with 3 samples.

Results

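The genes described here are 55 cell division genes, a list of 23 genes of DNA replication (S phase) and 32 genes of the G2 phase and mitosis (G2/M), taken by a list of names, with no threshold on their values, from the 31053 genes in the count tables. Their levels are given in 3 single-cell RNA libraries of mouse P14 cells, CD8 T cells whose transgenic receptor recognises the GP33 peptide from the lymphocytic choriomeningitis virus (LCMV). The TdLN and PBMC libraries came from the tumour-draining lymph node and the blood of C57BL/6 mice that carried B16.Gp melanoma, B16.F10 cells made to express the LCMV glycoprotein. Naive P14 cells from TCF-1-GFP reporter mice, which are labelled wild type, had been transferred 8 days after the tumour cells, and CD45.1+ CD44+ CD8 T cells were sorted on day 16 after the transfer. The memory library held P14 cells taken 200 days after acute infection with LCMV, from a tissue that the labels do not state. They were CD8 T cells sorted for CD45.1, CD44, CD127 and CD62L and against KLRG1 (CD45.1+, CD44+, CD127+, CD62L+, KLRG1-), and are also labelled C57BL/6 and wild type. Each group was 1 library, the number of mice pooled in it is not stated, and tissue, day, infection or tumour, sort gate and preparation cannot be told apart. No p-value is therefore given, and each interval in parentheses is a 95% interval that covers counting error only.

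A dividing cell first licenses its replication origins by loading the MCM helicase, then copies its DNA in S phase, and only afterwards builds the mitotic spindle and separates its chromosomes. Transcription follows that order: E2F factors drive most S phase genes, and the B-MYB and FOXM1 complexes drive most G2/M genes through the cell cycle homology region (CHR) of their promoters. Naive and memory CD8 T cells rest outside the cycle, whereas a CD8 T cell that has met its antigen divides rapidly, and lymph nodes are where such cells are usually primed.

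The 2 phases differed in their promoter sequences, which the gene list had not used. RefSeq promoter windows of 300 bases (build GRCm38.p6, from 250 bases before to 50 after the start site) were found for 46 of the 55 members, with 49 windows in all because some genes have more than 1. An E2F match (TTCCCGC or TTGGCGC on either strand) lay in 54.5% of 22 S windows, in 11.1% of 27 G2/M windows and in 6.81% of all 32851 windows. A CHR match (TTTGAA on either strand) lay in 70.4% of the G2/M windows, 9.09% of the S windows and 17.9% of all windows. A CCAAT match, the letters bound by the factor NF-Y, was found in 85.2% of the G2/M windows, 59.1% of the S windows and 37.4% of all. The CCAAT and CHR letters stood together in 70.4% of the G2/M windows, 4.55% of the S windows and 6.95% of all windows. These are matches of letters in a window, which do not show that a factor binds there.

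**Figure D1:**
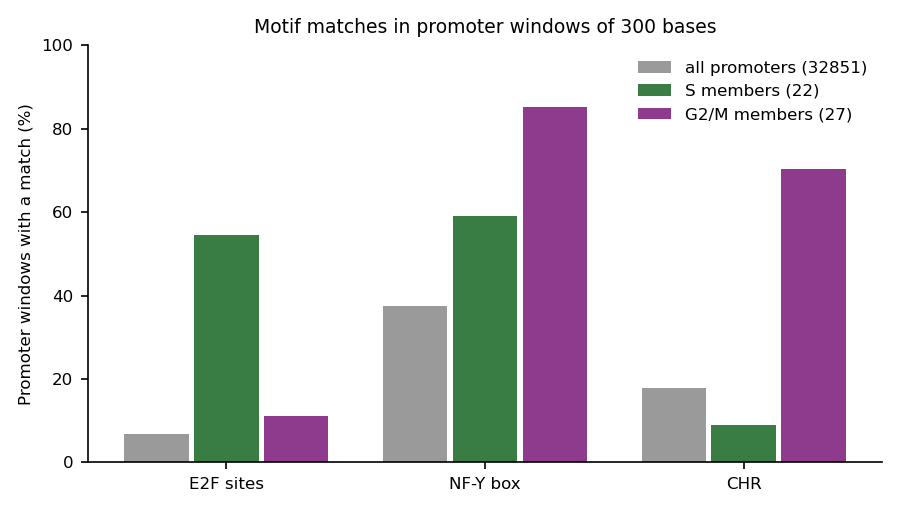
Share of promoter windows of 300 bases (y axis, percent) with at least 1 match to E2F sites, to the NF-Y box or to the CHR, for all promoters, the S members and the G2/M members, with the number of windows in the legend. E2F matches stand at 54.5% of the S windows and CHR matches at 70.4% of the G2/M windows.

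The promoters of 2 S genes and 4 G2/M genes show the arrangement, with the last 150 bases before the RefSeq start site printed 5′ to 3′ on the strand of the gene and E2F, CCAAT and CHR matches in capitals. Mcm5 and Mcm6 encode helicase subunits, and their windows hold E2F matches without a CHR. Top2a (DNA topoisomerase II), Kif11 (a spindle motor) and Hmgb2 (a chromatin protein) hold a CCAAT match followed by a CHR. Kif23, a motor of the central spindle, is shown because its values below differ from those of the other G2/M genes; within the stretch printed it holds 1 CCAAT match, and its CHR match begins just after the start site. The stretches are chr8:75109359-75109508 on the plus strand for Mcm5, chr1:128359706-128359855 on the minus strand for Mcm6, chr11:99024190-99024339 on the minus strand for Top2a, chr19:37376232-37376381 on the plus strand for Kif11, chr8:57511693-57511842 on the plus strand for Hmgb2 and chr9:61946800-61946949 on the minus strand for Kif23.
Mcm5: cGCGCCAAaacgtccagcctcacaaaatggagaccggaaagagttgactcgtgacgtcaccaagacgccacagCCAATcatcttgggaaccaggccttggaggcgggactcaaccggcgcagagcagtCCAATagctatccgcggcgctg
Mcm6: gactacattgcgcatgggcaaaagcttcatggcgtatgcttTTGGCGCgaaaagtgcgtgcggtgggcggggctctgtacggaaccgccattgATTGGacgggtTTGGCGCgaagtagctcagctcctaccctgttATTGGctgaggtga
Top2a: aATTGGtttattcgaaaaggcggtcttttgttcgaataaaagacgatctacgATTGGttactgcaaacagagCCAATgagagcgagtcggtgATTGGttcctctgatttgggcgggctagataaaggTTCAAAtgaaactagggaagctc
Kif11: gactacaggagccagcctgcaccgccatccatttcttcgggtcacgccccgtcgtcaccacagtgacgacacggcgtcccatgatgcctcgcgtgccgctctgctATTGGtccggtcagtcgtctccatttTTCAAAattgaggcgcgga
Hmgb2: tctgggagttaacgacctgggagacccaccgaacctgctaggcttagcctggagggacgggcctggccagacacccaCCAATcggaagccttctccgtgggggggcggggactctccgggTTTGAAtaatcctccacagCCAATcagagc
Kif23: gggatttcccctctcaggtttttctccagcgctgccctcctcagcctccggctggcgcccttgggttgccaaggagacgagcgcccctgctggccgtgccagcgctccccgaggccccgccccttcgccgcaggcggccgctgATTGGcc

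Barcodes were kept where 500 genes or more were detected and mitochondrial genes held no more than 10% of the counts. This left 6265 barcodes of TdLN, 5652 of PBMC and 7003 of memory, with medians of 7085 to 9956 UMIs (counted RNA molecules) per cell and 48987260 to 70116366 UMIs per library. Levels are CPM, the UMIs of a gene per 1000000 UMIs of the cells summed; they are counts at the 3′ end and are not divided by gene length, so levels of different genes are not compared. The T cell genes Cd3e and Cd8a had a UMI in 94.0% to 95.9% and 88.2% to 93.2% of kept cells, and Cd4 stood at 2.42 CPM (TdLN) and 0.0285 CPM (memory), with no count in PBMC, which allows up to 0.0612 CPM. Cells with 3 or more markers of a B, myeloid, red cell, platelet, melanoma, stromal or neutrophil list numbered 309, 134 and 27 in TdLN, PBMC and memory. The libraries shared 6 to 15 kept barcodes per pair. Over all genes, the median log2 ratio was 0.14 for TdLN over memory, 0.15 for TdLN over PBMC and -0.00 for PBMC over memory.

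Over all kept cells, cell division genes were higher in TdLN than in the other libraries. A gene was measured in a comparison when its level was at least 5 CPM in the higher library, and called at a ratio of at least 2. For TdLN over memory 52 members were measured and 44 of them were called higher, against 5.65% of all 8442 genes measured, and none was called lower (2.72% of all genes). For TdLN over PBMC 43 of 52 were called higher (4.46% of all genes) and none lower (2.42%). For PBMC over memory only 28 members reached 5 CPM; 8 were called higher (2.43% of all genes) and none lower (1.61%). In cells whose only beta segment is Trbv13-3 the 8 became 3, and without the 5% of cells with most UMIs the 43 became 8. Each library enters 2 of these 3 comparisons, so they are not independent of each other. The 8 members called in PBMC over memory were all G2/M genes, Ube2c, Kif23, Birc5, Mki67, Cenpa, Top2a, Stmn1 and Smc4, and their ratios ran from 8.46 for Ube2c to 2.16 for Smc4. The 3 members under 5 CPM in every library, Cdc6, Ccne2 and Bub1, were also at their highest in TdLN, at 4.54, 2.86 and 4.85 CPM.

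**Figure D2:**
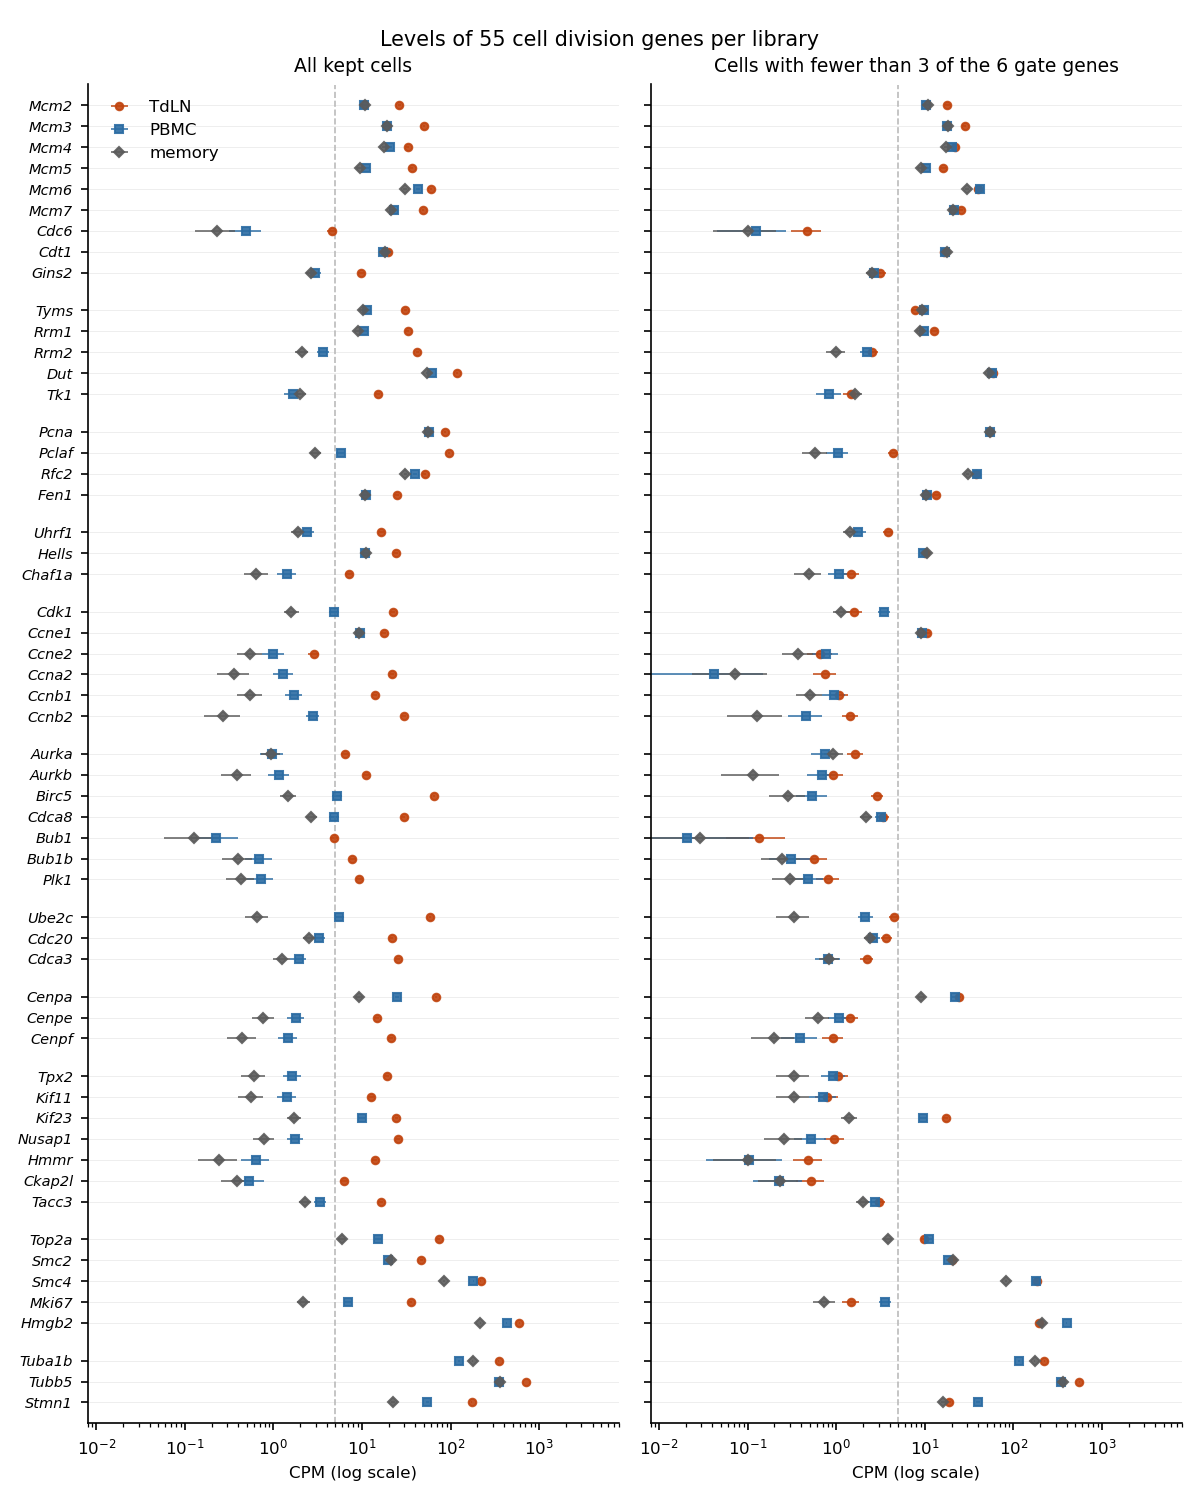
Level of each of the 55 genes in CPM (x axis, log scale) per library, over all kept cells on the left and over cells with fewer than 3 of the 6 gate genes on the right, ordered by role from DNA replication to mitosis; bars are 95% Poisson intervals and the dashed line marks 5 CPM. On the left the TdLN points lie to the right of the other libraries; on the right most G2/M genes lie left of the line in all 3 libraries.

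Among the S genes the difference was modest for those that load and form the helicase, where 5 of 8 measured members were called higher in TdLN than in memory. Mcm6 stood at 60.3 CPM in TdLN (58.5–62.1) against 42.8 in PBMC (41.0–44.7) and 30.5 in memory (29.2–31.8), a ratio of 1.98 for TdLN over memory (1.87–2.08). Mcm5 had the largest ratio of the group, 3.86 (3.54–4.21), with 36.3, 11.2 and 9.40 CPM in TdLN, PBMC and memory. Cdt1, which loads the helicase, had the smallest, 1.11 (1.02–1.19), with 19.9, 17.4 and 18.0 CPM. The Cdt1 levels of the 3 libraries were thus nearly alike, while Mcm5 set TdLN apart from both others.

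All 5 genes that supply nucleotides were called higher in TdLN than in memory. Dut, which clears dUTP from the nucleotide pool, was at 119 CPM in TdLN against 61.4 in PBMC and 54.2 in memory, a ratio of 2.19 over memory (2.11–2.28). Rrm2, the subunit of ribonucleotide reductase that is made in S phase, was at 42.0, 3.65 and 2.08 CPM, a ratio of 20.2 (17.1–24.0). At the replication fork, 2 of 4 members were called. Pclaf, which binds the sliding clamp PCNA, was at 96.2, 5.78 and 2.97 CPM, a ratio of 32.4 (28.2–37.4). Pcna itself was at 87.4, 57.3 and 56.0 CPM, a ratio of 1.56 (1.50–1.63), and remained within 2-fold in all 3 comparisons.

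The 3 genes that restore chromatin behind the fork were all called higher in TdLN than in memory. Hells, a chromatin remodeller, was at 24.2 CPM in TdLN against 10.8 in PBMC and 11.0 in memory. Chaf1a, a subunit of the histone chaperone CAF-1, was at 7.10, 1.41 and 0.642 CPM, a ratio of 11.1 for TdLN over memory (8.15–15.4).

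The G2/M genes stood further apart: 29 of 31 measured were called higher in TdLN than in memory, with a median log2 ratio of 4.03, against 15 of 21 S genes and a median of 1.28. Of the cyclins, Ccnb2, a partner of the mitotic kinase Cdk1, was at 29.7 CPM in TdLN (28.5–31.0) against 2.80 in PBMC (2.35–3.31) and 0.271 in memory (0.163–0.423). That is a ratio of 109.7 for TdLN over memory (70.1–183), the largest of the 52 measured members. Ccne1, a cyclin of the entry into S phase, was at 17.5, 9.59 and 9.33 CPM, a ratio of 1.88 (1.71–2.07). The mitotic cyclin thus differed over 3 clearly separate levels, and the G1/S cyclin only between TdLN and the rest.

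Among the mitotic kinases and their partners, Birc5 (survivin, part of the chromosomal passenger complex with Aurkb and Cdca8) was at 65.2, 5.25 and 1.47 CPM in TdLN, PBMC and memory. Aurka, the centrosome kinase, was at 6.37, 0.959 and 0.941 CPM, a ratio of 6.77 for TdLN over memory (5.22–8.90), the smallest of that group. Ube2c, the ubiquitin enzyme of the anaphase-promoting complex, was at 59.0, 5.55 and 0.656 CPM, a ratio of 89.9 (67.3–123). Cdc20, which activates the same complex, was at 21.5, 3.27 and 2.50 CPM, a ratio of 8.63 (7.37–10.1). All 6 measured members of the kinase group and all 3 of the mitotic exit group were called higher in TdLN than in memory.

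At the centromere, Cenpa, the histone H3 variant that marks it, was at 67.9 CPM in TdLN against 24.7 in PBMC and 9.23 in memory, whereas Cenpf, a protein of the outer kinetochore, was at 21.2, 1.45 and 0.442 CPM. All 7 spindle genes were called higher in TdLN than in memory. Nusap1, which bundles spindle microtubules, was at 25.6, 1.76 and 0.784 CPM. Hmmr had the largest ratio of the group, 57.2 (35.6–98.7), with 13.9, 0.633 and 0.242 CPM, and Tacc3 the smallest, 7.06 (5.98–8.39). PBMC lay between the other libraries for each of the genes named here.

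Among the chromosome structure genes, Mki67, a coat protein of mitotic chromosomes, was at 35.6, 7.0 and 2.18 CPM and Top2a at 73.0, 15.2 and 5.89 CPM in TdLN, PBMC and memory. Hmgb2 was at 596 CPM in TdLN against 432 in PBMC and 217 in memory, and Smc2, which pairs with Smc4 in condensin, at 46.6, 19.8 and 21.2 CPM. Of the tubulin genes, Tubb5 was at 709.9, 353 and 364 CPM, a ratio of 1.95 for TdLN over memory (1.92–1.98). Stmn1, which takes microtubules apart, was at 173, 54.2 and 22.5 CPM, a ratio of 7.72 (7.32–8.14). Tubb5, Tuba1b and Hmgb2 have close relatives in the genome, so their counts are uncertain as far as reads of such copies could not be told apart.

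A summed level cannot tell fewer dividing cells from less RNA per dividing cell, so cells were split by 6 members, Mki67, Top2a, Birc5, Ube2c, Pclaf and Rrm2. Cells with a UMI of 3 or more of them are called gate cells here. There were 330 gate cells in TdLN (5.27% of kept cells), 36 in PBMC (0.637%) and 14 in memory (0.200%). With every cell thinned to 4200 UMIs, and 198, 504 and 276 shallower cells left out, the shares were 3.49% in TdLN (3.05–3.99, 212 cells), 0.350% in PBMC (0.207–0.552, 18 cells) and 0.134% in memory (0.0612–0.254, 9 cells). The intervals of TdLN and of the other libraries do not overlap, while those of PBMC and memory do. They count cells of 1 library each and hold no spread between mice or libraries, so neither is a test between the groups. Of the unthinned gate cells 184 in TdLN, 10 in PBMC and 6 in memory had all 6 genes, and 140, 47 and 17 cells had 2, just under the limit.

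Gate cells held more RNA molecules than other cells, with medians of 26563.5 UMIs in TdLN, 15168 in PBMC and 18083.5 in memory against 9514, 7040.5 and 9953 outside. In TdLN they were 5.27% of the cells and held 13.8% of the UMIs, and 220 of the 330 were among the 5% of cells with most UMIs. Leaving out those deepest cells reduced the thinned share of gate cells in TdLN from 3.49% to 0.852% (49 of 5753 cells) and the number of members called higher in TdLN than in memory from 44 to 15. With each cell weighted equally the number was 28.

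Nearly all gate cells had T cell RNA. Cd3e had a UMI in 97.9% of them in TdLN and in 100% in PBMC and memory, Cd8a in 98.2%, 94.4% and 100%, and Cd4 in 0.909% in TdLN and in no gate cell of the other libraries. Trdc had a UMI in 80.0% of TdLN gate cells and 68.6% of the cells outside, at 382 CPM inside and 455 outside. In TdLN, 40 of the 330 (12.1%) also had 3 or more markers of another cell type, against 4.53% of the cells outside the gate. Of these 40, 35 had markers of the B cell list and 38 had a UMI of Cd3e or Cd8a, and their median was 30921.5 UMIs. Outside the gate, cells with such markers had a median of 6104 UMIs against 9559.5 in those without. Summed over its 8 genes, the B cell list stood at 321 CPM in TdLN gate cells and 401 outside, with 7 of the 8 lower inside and Ighm at 229 CPM inside and 214 outside. The share of cells with a UMI was higher inside for Cd79b (34.5% against 18.6%), Cd74 (27.6% against 7.03%) and Ighm (94.5% against 79.2%), in cells of greater depth. In PBMC 4 of 36 gate cells (11.1%), all with platelet markers, had such markers against 2.31% outside, and the platelet list summed to 158 CPM inside and 46.4 outside. Whether doublets add to the gate cells was not tested; without cells that carry such markers the thinned share in TdLN was 3.27%. Trbv13-3, the beta segment of the P14 receptor, held 77.9% of the Trbv UMIs in TdLN gate cells (69.8–84.6, 102 of 131) against 89.9% outside (88.5–91.2). It held 43.8% in PBMC gate cells (19.8–70.1, 7 of 16) against 68.9% outside, and 14 of 14 in memory against 95.5%. Other beta segments held the rest, the largest part of it in PBMC.

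Gate cells were divided by phase with the remaining members. A thinned cell was called S or G2/M by whichever of 2 lists of 21 members, without the 6 gate genes and 7 members with broad expression, gave more genes with a UMI, at a minimum of 3. Of the 212 thinned gate cells of TdLN 99 were called S (46.7%, 39.8–53.7), 107 G2/M (50.5%, 43.5–57.4) and 6 neither. The S-called cells had a median of 11 S and 4 G2/M genes, and the G2/M-called cells 5 and 12. In PBMC the 18 gate cells divided into 9 S and 9 G2/M, and in memory the 9 into 6 and 3, too few cells to compare these shares with that of TdLN.

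**Figure D3:**
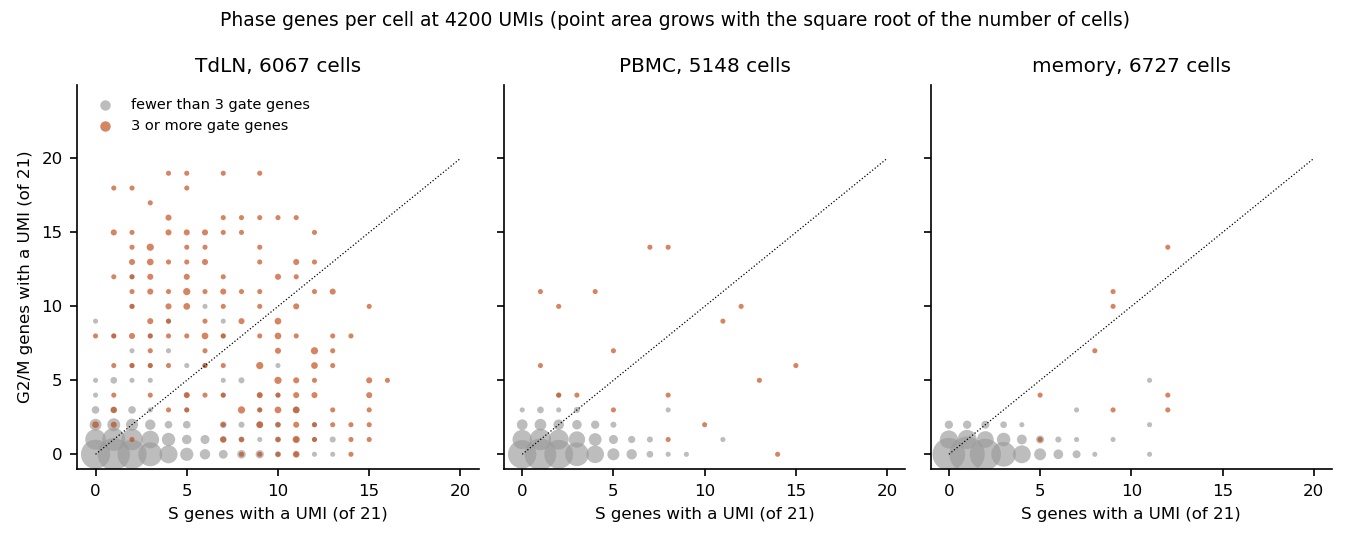
Number of S genes (x axis) and G2/M genes (y axis) with a UMI in each cell thinned to 4200 UMIs, by library; point area grows with the square root of the number of cells at that position, orange marks gate cells and the dotted line equal numbers. TdLN gate cells lie on both sides of the dotted line, 99 called S and 107 called G2/M, and many have genes of both phases. The grey cells near the origin reach several S genes but few G2/M genes.

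Most S calls fell on cells with no gate gene. Over all thinned cells 18.2% of TdLN, 16.4% of PBMC and 12.4% of memory were called S, but 76.9%, 85.9% and 95.2% of these had a UMI of none of the 6 gate genes. Before thinning, most kept cells had none of the 6 either, 4813 of 6265 in TdLN, 4810 of 5652 in PBMC and 6594 of 7003 in memory. At exactly 3 S genes, the minimum, stood 58.2%, 68.0% and 71.8% of the S-called cells. Without thinning, the S-called share rose to 54.1%, 44.1% and 48.4%. No share of cycling cells is therefore read from the S calls. Asking for 6 genes of the phase, a limit chosen after the values were seen, gave 3.05% S-called cells in TdLN, 0.738% in PBMC and 0.476% in memory. The G2/M calls were rarer, 2.36% in TdLN (1.99–2.77, 143 cells), 0.330% in PBMC (0.192–0.528, 17 cells) and 0.0446% in memory (0.00920–0.130, 3 cells). In TdLN 107 of the 143 were gate cells and 3 had none of the 6 genes.

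Genes left out of the call also differed between the S- and G2/M-called gate cells of TdLN, taken without thinning (169 and 158 cells, medians of 27880 and 24682.5 UMIs). Of 29 measured genes of a further mitosis list 23 were at least 2-fold higher in the G2/M-called cells, where 3.28% of all 4973 genes at 20 CPM or more were. Among them were Prc1 (4.51-fold, 3.88–5.27), which bundles the central spindle, Kif20a (6.51-fold, 4.75–9.09) and Cdc25b (4.40-fold, 3.58–5.45), a phosphatase that activates Cdk1. Of the same list 1 gene, Cdc25a, was at least 2-fold higher in the S-called cells (2.80% of all genes). Of 19 measured genes of a further replication list none was at least 2-fold higher in the G2/M-called cells. The factor E2f1 was at 45.6 CPM in S-called and 11.4 in G2/M-called cells, and Foxm1, a driver of G2/M genes, at 9.12 and 28.3. The CDK inhibitor genes Cdkn2c and Cdkn2d were 4.45-fold (3.54–5.63) and 3.25-fold (2.88–3.68) higher in the G2/M-called cells.

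The gate genes themselves did not share 1 phase. Ube2c was at 783.7 CPM in the G2/M-called and 90.5 in the S-called cells of TdLN, 8.66-fold higher (7.87–9.56), and Mki67, Birc5 and Top2a were 3.52-fold, 3.12-fold and 2.86-fold higher. Rrm2, at 291 and 289 CPM, and Pclaf, at 738 and 620.1 CPM, were within 2-fold, so the 6 genes together reach cells of both phases. The chromatin protein Hmgb2 was 1.94-fold higher in the G2/M-called cells (1.90–1.99) and Stmn1 1.81-fold (1.74–1.88).

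Members differed in how far they were limited to gate cells. In TdLN the level of the 21 G2/M genes of the call outside the gate was a median of 1.13% of their level inside, with 19 of 21 under 5%, from 0.389% for Bub1 (0.166–0.775), a checkpoint kinase, upward. For the 21 S genes the median was 11.97%, and 11 were above 10%, from 1.45% for Tk1 and 1.55% for Cdc6 to 41.6% for Cdt1 (36.9–46.9). A median of 93.4% of the UMIs of the G2/M genes, but 57.2% of those of the S genes, lay in TdLN gate cells. The medians were 1.55% and 14.6% in PBMC and 0.544% and 9.74% in memory, so the order of the 2 phases was the same in each library, and whether free RNA in the droplets adds to the levels outside was not tested. Cells outside the gate had at most 2 of the 6 genes, and the gate genes are low there by construction. Of the 6 gate genes 4 are G2/M genes that were higher in the G2/M-called cells, Mki67, Top2a, Birc5 and Ube2c. The gate may therefore take in G2/M cells more readily than S cells. Its part in the lower percentages of the G2/M genes outside was not tested.

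**Figure D4:**
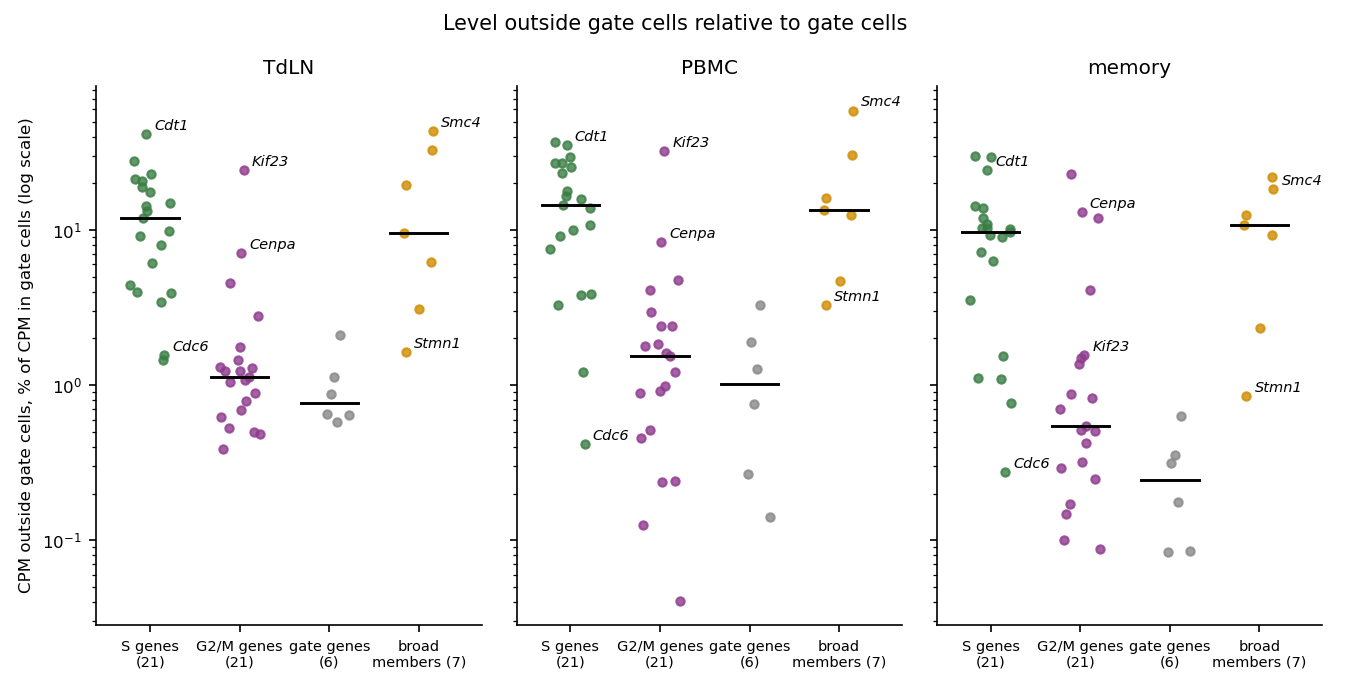
CPM outside gate cells as a percent of CPM in gate cells (y axis, log scale) for the S genes and G2/M genes of the phase call, the 6 gate genes and the 7 broad members, by library; points are genes and lines medians. The median of the S genes lies above that of the G2/M genes in each library, and Kif23 lies at 24.3% in TdLN and 1.55% in memory.

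Kif23, at 24.3%, and Cenpa, at 7.10%, were the G2/M genes of the call above 5% in TdLN. Kif23 encodes the motor subunit of centralspindlin, which works with Racgap1 at the midbody (chr9:61915905-61946774, minus strand, GRCm38). In gate cells Kif23 stood at 70.5 CPM in TdLN against 29.9 in PBMC and 89.4 in memory, the last from 22 UMIs. Outside the gate Kif23 was at 17.1 CPM in TdLN (16.1–18.2) against 9.63 in PBMC (8.78–10.6) and 1.39 in memory (1.13–1.69), 12.3-fold higher in TdLN than in memory (10.0–15.3), 6.94-fold in PBMC (5.56–8.73) and 1.78-fold in TdLN over PBMC (1.59–1.99). The level outside was 24.3% of that inside in TdLN (22.0–26.8) and 32.2% in PBMC (20.2–54.9), but 1.55% in memory (0.970–2.59). The 1026 UMIs outside the gate in TdLN were spread over 895 cells with at most 4 in a cell, and the 97 of memory over 91 cells.

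Other genes of the final stage of division were within 2-fold or under 5 CPM outside the gate. Racgap1, its partner, was at 39.4 CPM in TdLN against 53.0 in PBMC and 35.4 in memory, and Prc1 at 2.20, 4.15 and 1.57 CPM. Ect2, the exchange factor that centralspindlin recruits, was at 0.867, 1.08 and 0.930 CPM, and Anln, a scaffold of the contractile ring, at 0.267, 0.248 and 0.143. In cells with none of the 6 gate genes Kif23 was at 17.3 CPM in TdLN against 9.84 in PBMC and 1.39 in memory, and in cells outside the gate with Trbv13-3 as their only beta segment at 16.3, 11.7 and 1.53. No other gene of the GENCODE M21 annotation overlaps Kif23. The ribosomal protein gene Rplp1 begins 1362 bases beyond the 3′ end of Kif23 on the same strand. Outside the gate Rplp1 was at 12071, 10464 and 11278 CPM in TdLN, PBMC and memory. Whether reads from outside the gene add to the Kif23 counts was not tested.

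Outside the gate, where 23 of the 49 members other than the gate genes were measured for TdLN over memory, 3 were called higher, against 4.05% of all genes, and none lower (2.56%). These were Kif23, Cenpa and Smc4. Of the 38 such members that were called over all kept cells, 12 were within 2-fold outside the gate and 23 fell below 5 CPM there, so that they were not measured. For TdLN over PBMC none of 23 was called higher (3.12% of all genes) and 2, Hmgb2 and Stmn1, were called lower (2.59%). For PBMC over memory 4 of 23 were called higher (2.35% of all genes) and none lower (1.64%). The 4 were Kif23, Cenpa, Smc4 and Stmn1, and they are the same genes that, gate genes aside, were called over all kept cells. All calls outside the gate fell on members listed as G2/M. Of these, Cenpa and Kif23 belong to the phase call, while Smc4, Stmn1 and Hmgb2 are among the 7 members with broad expression. In each comparison 15 S genes were measured and none was called. At the shares of all genes given here few or none of 15 would be called, so no contrast between the phases is read from this.

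Smc4, a core subunit of condensin (chr3:69004738-69034623, plus strand), was at 185 CPM outside the gate in TdLN (182–189), 179 in PBMC (175–183) and 82.5 in memory (80.3–84.6). It was 2.25-fold higher in TdLN than in memory (2.18–2.32) and 2.17-fold in PBMC (2.10–2.24), and TdLN and PBMC were within 1.04-fold (1.01–1.07). Its partner Smc2 was at 20.2, 18.3 and 20.6 CPM, and the condensin subunit Ncapd2 at 4.50, 3.22 and 3.55, without such a step. With each cell weighted equally the log2 ratio of Smc4 for PBMC over memory was 0.90 instead of 1.12, below the limit of 2-fold. The microRNA genes Mir15b and Mir16-2 lie within Smc4, and their small RNAs are not counted here.

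Cenpa (chr5:30666777-30674830, plus strand) was at 24.2 CPM outside the gate in TdLN (23.0–25.5), 21.8 in PBMC (20.5–23.1) and 9.02 in memory (8.33–9.75). It was 2.69-fold higher in TdLN than in memory (2.45–2.96), 2.42-fold in PBMC (2.19–2.67) and 1.11-fold in TdLN over PBMC (1.03–1.21). The other centromere genes, Cenpe and Cenpf, lay between 0.200 and 1.42 CPM outside the gate in all 3 libraries, under the limit for a call. Cenpa and Smc4 thus set memory apart from both libraries of tumour-bearing mice, where Kif23 had 3 separate levels.

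**Figure D5:**
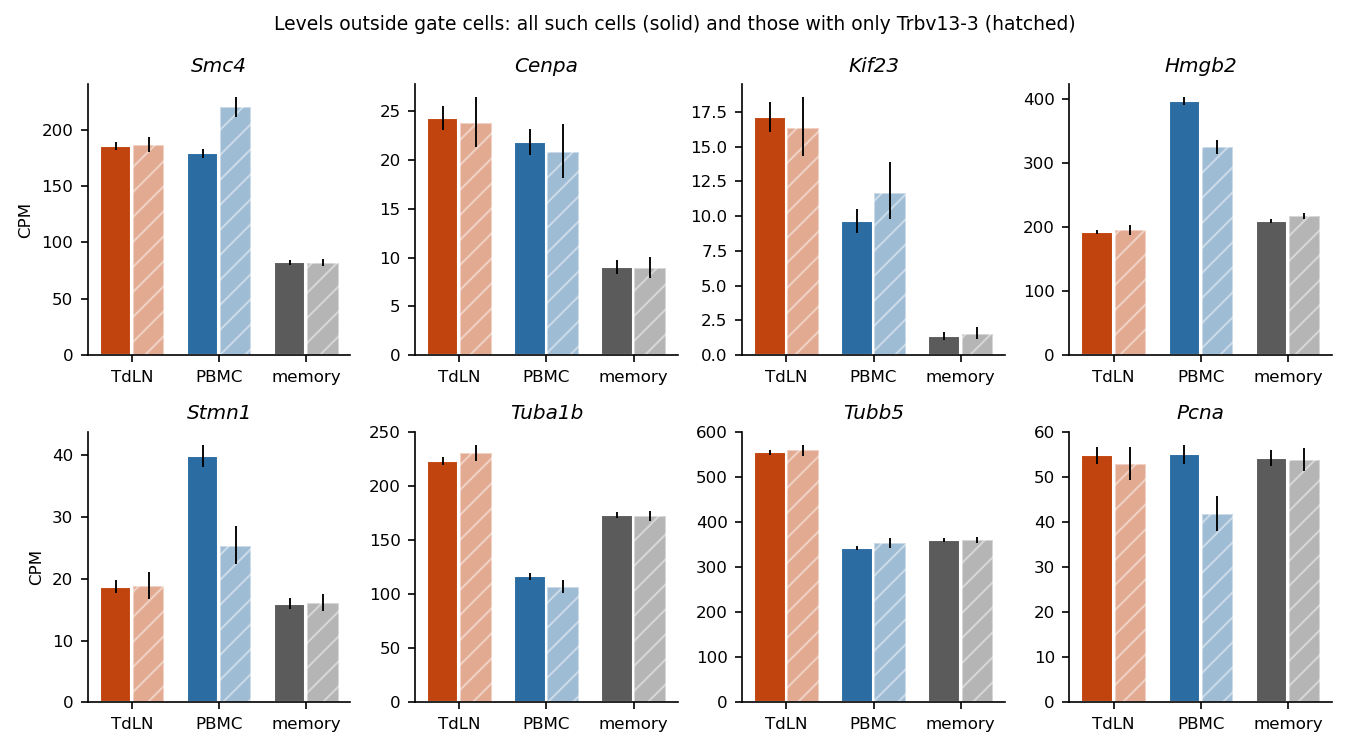
CPM of 8 members outside gate cells (y axis, from 0) per library, over all such cells (solid) and over those whose only beta segment is Trbv13-3 (hatched); bars are sums over cells of 1 library with 95% Poisson intervals. Smc4, Cenpa and Kif23 are lowest in memory under both; Stmn1 in PBMC is at 39.8 CPM over all such cells and 25.3 CPM in those with Trbv13-3 alone.

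Hmgb2 and Stmn1 were highest in PBMC outside the gate although they were highest in TdLN over all cells. Hmgb2 (chr8:57511907-57515999, plus strand) was at 193 CPM in TdLN (189–197) against 397.5 in PBMC (392–403) and 209.8 in memory (206–213), 2.06-fold lower in TdLN than in PBMC (2.01–2.11). Stmn1 (chr4:134468320-134473843, plus strand) was at 18.7 CPM (17.6–19.8), 39.8 (38.1–41.6) and 16.0 (15.0–16.9), 2.13-fold lower in TdLN than in PBMC (1.98–2.29) and 2.50-fold higher in PBMC than in memory (2.32–2.69). In cells with Trbv13-3 as the only beta segment, 1418 TdLN, 957 PBMC and 3017 memory cells before the split, these differences were smaller. Stmn1 was then at 18.8, 25.3 and 16.1 CPM and Hmgb2 at 196, 326 and 218, and both were within 2-fold in all 3 comparisons. In PBMC those with none of the 6 gate genes were deeper, at a median of 11778 UMIs against 7040.5 in all cells outside the gate. The same medians were 9808 and 9514 in TdLN and 10267 and 9953 in memory. The part of depth in the smaller differences was not tested.

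The tubulin genes kept a difference outside the gate that stayed under 2-fold. Tuba1b was at 223 CPM in TdLN against 116 in PBMC and 173 in memory, 1.92-fold higher in TdLN than in PBMC (1.86–1.98), and 2.15-fold (2.01–2.30) in cells with Trbv13-3 alone. Tubb5 was at 555 CPM in TdLN against 343 in PBMC and 359.9 in memory. Several S genes were nearly level: Pcna was at 54.9, 55.1 and 54.3 CPM, Dut at 58.9, 57.2 and 52.8 and Cdt1 at 16.7, 17.0 and 17.8. Mcm5, at 16.1, 10.2 and 9.10 CPM, had the largest ratio of the measured S genes for TdLN over memory, 1.77 (1.60–1.96).

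Within the gate the few cells of PBMC and memory gave wide intervals, and 55 of 55 members were above 5 CPM in the TdLN gate cells. Ccnb1, the main partner of Cdk1 at mitotic entry, was at 94.2 CPM in TdLN (88.2–100.6) against 61.4 in PBMC (43.2–84.6) and 12.2 in memory (2.51–35.6, 3 UMIs). Ccnb2 was at 207, 191 and 40.6 CPM and Cenpa at 341, 260.5 and 69.1. Pcna was at 291 CPM in TdLN (280.1–302) against 236 in PBMC (198–278) and 528 in memory (441–627), and Ccne2, a cyclin of S phase entry, at 16.7, 19.9 and 48.8. Other genes of both phases went the other way, with the S gene Mcm2 at 78.6 CPM in TdLN and 36.6 in memory gate cells and the G2/M gene Kif23 at 70.5 and 89.4. The memory values rest on 14 cells, of which 13 were called S without thinning and 1 G2/M.

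Other cell cycle genes, from lists kept apart from the members, are set here against the 5.65% of all genes called higher in TdLN than in memory over all kept cells and the 4.05% outside the gate. Of a mitosis list of 31 genes, 18 of 23 measured were called higher in TdLN than in memory over all kept cells and 1 of 11 outside the gate. Of a replication list of 20 genes, 8 of 17 were called over all kept cells and 0 of 14 outside. Of 10 genes of G1 and the restriction point 1 of 9, Cdk2, was called. Of 7 CDK inhibitor genes none of the 3 measured was called for TdLN over memory over all kept cells. Of 13 E2F and late-cycle factors E2f1, E2f2 and E2f3 were called higher there. They were at 6.26, 7.75 and 7.98 CPM in TdLN against 0.770, 2.42 and 3.48 in memory. Outside the gate E2f1 and E2f2 were under 5 CPM in both libraries, and E2f3 was at 5.47 against 3.28. Ccnd2, a G1 cyclin, was higher in memory, at 483 CPM against 309 in TdLN and 274 in PBMC, and Cdkn1b (p27), which holds cells out of the cycle, was at 65.6 CPM in TdLN against 123 in PBMC and 111 in memory; both were within 2-fold in each comparison.

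Outside the gate the gene that joined Smc4, Cenpa and Kif23 was Cks2, a subunit of the Cdk1 kinase, at 49.4 CPM in TdLN against 59.8 in PBMC and 19.3 in memory, 2.56-fold higher in TdLN than in memory (2.40–2.73) and 3.1-fold in PBMC (2.91–3.31). For PBMC over memory, where 2.35% of all genes were called higher, Ezh2 (2.98-fold, 2.67–3.33), E2f2 (3.53-fold, 2.92–4.28) and Cdc25b (2.29-fold, 2.10–2.50) were called higher as well. Cdc25b was at 27.3 CPM in PBMC against 10.4 in TdLN and 11.9 in memory. For TdLN over PBMC Myc, the growth factor response gene, was called higher outside the gate (3.12% of all genes). It was at 58.9 against 22.0 CPM (2.68-fold, 2.50–2.87), with 38.0 CPM in memory. In that comparison 5 genes of these lists were called lower in TdLN (2.59% of all genes). They were Cdc25b (2.61-fold, 2.38–2.88), E2f2 (2.24-fold, 1.88–2.66), Rpa2 (2.09-fold, 1.97–2.22), Cdkn2c (2.06-fold, 1.78–2.40) and Wee1 (2.04-fold, 1.67–2.50). How many genes of these lists were measured is not given here for PBMC over memory or TdLN over PBMC. The calls are therefore not read as more or fewer than the shares of all genes.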

How the data were processed

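The deposited files give, for each barcode, the count of UMIs of every gene; Cell Ranger 3.1.0 and mm10 are named for the authors' processing, per the submitters' processing notes; whether counting used the strand is not given in the sources used here. Of the members, 16 overlap another protein-coding gene, 2 of them (Cdt1 and Tuba1b) on the same strand. Kept barcodes had 500 or more genes and no more than 10% of their counts from mitochondrial genes, and no doublet caller was run. The CPM minimum was 5 in the higher library and the call limit 2-fold. Counts were summed over cells per library and divided by the library's total (CPM), with exact Poisson intervals for levels, exact conditional binomial intervals for ratios and Clopper-Pearson intervals for shares, all at 95%. With 1 library per group no test between groups was made. A count of 0 allows up to 3 counts. Cells were thinned at random to 4200 UMIs for shares of cells. The ratio calls were tested on simulated data with counting error only. The genes named were, in each role group, those with the highest level, the largest ratio and the smallest ratio for TdLN over memory, those called outside the gate, and the 6 gate genes; partners were taken from the lists of other cell cycle genes. Genes named for gate cells or phases, and others outside that rule, were chosen after their values were seen. The members and lists were chosen with earlier results of these data known. Promoters came from RefSeq (GRCm38.p6) and gene positions from GENCODE M21. Python 3.11.15, numpy 2.4.6, scipy 1.17.1, pandas 2.3.3 and matplotlib 3.10.9 were used, with edgeR 4.0.16 in R 4.3.3 for TMM factors only. Alternatives changed the cells, totals, minimum level, gate, depth of thinning and phase minimum. The TIL library named in the design was not analysed here.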

Additional observations from a re-analysis of the deposited data

How the results depend on the processing

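No paired analysis was possible because each group is 1 library with no shared replicate numbers, and leaving out a replicate was not possible for the same reason. Of 147 alternative values of the counts and shares 96 kept within their limit and 51 moved, and of 99 values for single genes 25 moved. For TdLN over memory the 44 members called higher became 28 with equal weight per cell, 29 at a minimum of 20 CPM and 15 without the 5% of cells with most UMIs; for TdLN over PBMC the 43 became 22, 28 and 8. For PBMC over memory the 8 became 3 at 20 CPM, 19 at 1 CPM and 3 in cells with only Trbv13-3. Outside the gate, the 3 for TdLN over memory became 10 at 1 CPM, and the 0 for TdLN over PBMC became 4 at 1 CPM, 2 with totals that leave out ribosomal protein and mitochondrial genes, 1 with cells of 1000 genes and 5% mitochondrial counts, and 2 with only Trbv13-3. A higher minimum tests fewer genes. The deepest 5% of cells held 220 of the 330 gate cells in TdLN, 16 of 36 in PBMC and 9 of 14 in memory. The cause of the moved values was not tested.
The gate share of TdLN, 3.49%, was 5.27% without thinning, 5.45% with the stricter cells, 0.852% without the deepest cells, 4.85% with 2 or more genes and 2.65% with 4 or more. That of PBMC, 0.350%, was 0.637% without thinning, 0.185% without the deepest cells, 0.107% with only Trbv13-3 and 0.680% with 2 or more genes, and that of memory 0.297% with 2 or more. The S-called shares of TdLN, PBMC and memory were 54.1%, 44.1% and 48.4% without thinning, 10.5%, 9.13% and 6.43% at 3000 UMIs, 40.7%, 40.9% and 35.0% at 2 genes of the phase, 7.61%, 5.24% and 3.49% at 4 genes, and 3.05%, 0.738% and 0.476% at 6 genes, a limit chosen after seeing the data. The order of the S-called shares changed, with memory above PBMC without thinning and PBMC above TdLN at 2 genes. The S-called share of TdLN was 16.5% without the deepest cells and 17.1% with only Trbv13-3, where PBMC had 11.3%. The G2/M-called share of TdLN was 3.22% without thinning, 3.74% with the stricter cells, 0.973% without the deepest cells, 4.14% at 2 genes and 1.94% at 6. That of PBMC was 0.708% without thinning, 1.61% at 2 genes and 0.136% at 6, and that of memory 0.342% at 2 genes.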

Other observations

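Smc4 and Stmn1 differed in opposite directions between PBMC cells split by single genes, which were chosen after values were seen. Among PBMC cells with none of the 6 gate genes, Smc4 was at 216 CPM in the 2690 cells with a UMI of Tcf7, a transcription factor of memory and naive T cells, and at 91.8 in the 2120 without, a ratio of 2.36 (2.21–2.51). Stmn1 was at 24.1 CPM with Tcf7 and 71.1 without, and Hmgb2 at 333 and 513. Split by Gzma, a granzyme of effector cells, Stmn1 was at 63.5 CPM in the 2201 cells with a UMI and 23.9 in the 2609 without (2.66-fold, 2.40–2.95), Smc4 at 132 and 206, and Kif23 at 9.68 and 9.92. The cells with Tcf7 had a median of 11308.5 UMIs against 5169 without, and those with Gzma 5323 against 10640, and the part of depth in these differences was not tested.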
